A study of Mus musculus with 6 samples.

Results

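The mitochondrial oxidative phosphorylation system was followed in regenerating mouse liver through the nuclear genes that encode its subunits. Members were the genes whose symbols name a subunit of complexes I to V (Nduf, Sdh, Uqcr, Cox and Atp5 symbols, without the Ndufaf assembly factors). Probe sets that the array's annotation assigns to only 1 gene were used, and where a gene had several, the brightest by its average across arrays was taken. This gave 80 genes of 17097 measured: 35 in complex I, 4 in complex II, 7 in complex III, 17 in complex IV and 17 in complex V. The choice used no difference between the groups. The 80 genes had 139 probe sets in all, and 39 of them had more than 1.

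The series holds 6 arrays of total RNA from remnant liver, collected 12 h after a 70% partial hepatectomy (PHx), in which most of the organ is removed and the rest regrows. The mice were on the C57Bl/6 strain, with 3 wildtype controls and 3 mice carrying a hepatocyte-specific Klf6 knockout, labelled DeltaKlf6. Both groups underwent PHx, so no unoperated liver enters the comparison, and neither the animals' age nor what drives the deletion in hepatocytes is given in the sources used here. The whole study used 6 animals per group, and each array holds the RNA of 1 animal. The knockout is limited to hepatocytes, whereas whole liver also holds other cells.

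Oxidative phosphorylation makes most of the ATP of a hepatocyte. Complex I (NADH dehydrogenase) and complex II (succinate dehydrogenase) pass electrons to ubiquinone, complex III (cytochrome bc1) passes them on to cytochrome c, and complex IV (cytochrome c oxidase) passes them to oxygen. Complexes I, III and IV pump protons, and complex V (ATP synthase) uses the resulting gradient. Most subunits are encoded in the nucleus, and a smaller group in mitochondrial DNA, which the symbols used here do not cover. The nuclear genes are known to share transcription factors such as NRF1, the ETS factor GABP and YY1, and several complex IV subunits exist as tissue-specific isoforms.

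The symbols do not all name a structural subunit of the complex they are filed under. Ndufs5-ps is a transcribed pseudogene, Ndufa4 is now counted as a subunit of complex IV, and Cox7a2l is a factor of respiratory supercomplexes. All 80 genes matched RefSeq. The members' median level was 10.58 on the log2 scale, against array medians of 3.30 to 3.45 over all probe sets. Of the 80, 8 lay under 6, and these were Cox4i2, Cox6a2, Cox6b2, Cox7a1, Cox7b2, Cox8b, Cox8c and Ndufa4l2, most of them known as isoforms of muscle, lung or testis.

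Some arrays stood apart. The library labelled DeltaKlf6 1 went against its label: its 3 Klf6 probe sets read 5.81, 5.88 and 7.03, above the wildtype ranges of 3.41 to 4.03, 3.73 to 4.44 and 4.43 to 5.20. On the same probe sets DeltaKlf6 2 read 2.82, 4.12 and 4.61 and DeltaKlf6 3 read 2.83, 3.74 and 3.15, so that DeltaKlf6 2 was inside the wildtype range on the last 2 and DeltaKlf6 3 on the second. Whether these probe sets lie in the deleted part of Klf6 is not given in the sources used here, and one outside it would check nothing. Every direction below is therefore between libraries as labelled. The array controls for both ends of the Gapdh transcript differed by 3.47 and 3.45 (3' minus 5', log2) in the libraries labelled DeltaKlf6 1 and 2 and by 4.83 in DeltaKlf6 3, outside the wildtype range of 4.06 to 4.43 on either side. For actin the same values were 4.22, 3.998 and 5.05, with wildtype between 4.86 and 5.39. The upper quartile of all values was 5.08 in DeltaKlf6 3 and between 5.50 and 5.63 in the other arrays. Hepatocyte markers, 9 of 9 measured, averaged 11.16 to 11.21 in wildtype and 11.01 to 11.45 in DeltaKlf6, with deviations from wildtype of 0.26, 0.27 and -0.17 in DeltaKlf6 1, 2 and 3. None of these markers was under the array median. Kupffer cell markers (10 of 10) averaged 6.52 to 6.91 in wildtype and 6.58 to 7.34 in DeltaKlf6, sinusoidal endothelial markers (9 of 9) 6.76 to 6.96 and 6.27 to 6.88, and stellate cell markers (8 of 8) 5.49 to 5.76 and 5.07 to 6.22. Their deviations in DeltaKlf6 1, 2 and 3 were -0.02, 0.57 and -0.20 for Kupffer cells and 0.02, 0.03 and -0.59 for endothelium. For stellate cells they were 0.23, 0.58 and -0.57. The averages of hepatocyte and of stellate cell markers were thus high and low in the same libraries as many subunits. Markers of cholangiocytes (5 of 6), neutrophils (6 of 7), lymphocytes (7 of 8) and erythroid cells (3 of 5) had median differences of 0.15, -0.01, -0.01 and 0.07. Their part in the subunit values was not tested. Since these are bulk samples, fewer cells of a type and less RNA per cell cannot be told apart.

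Across the 80 genes, subunit values were on average a little higher in DeltaKlf6 than in wildtype, and the libraries labelled DeltaKlf6 1 and 2 carried most of it. The mean log2 difference was 0.19 and the median 0.13, beside a median of -0.01 over all genes. The difference was above 0 for 59 subunit genes and below 0 for 21, so that 73.8% were on the higher side, against 48.4% of all genes. Averaged over the 80 genes, the deviation from the wildtype mean was -0.10, 0.11 and -0.00 in wildtype 1, 2 and 3 and 0.23, 0.27 and 0.06 in DeltaKlf6 1, 2 and 3. DeltaKlf6 1 and 2 were thus above every wildtype array, and DeltaKlf6 3 lay inside the wildtype range.

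No subunit gene passed the test. By limma with Benjamini-Hochberg adjustment over 17097 genes, 0 genes (0%) were called at an adjusted p under 0.05, and the smallest adjusted p of a subunit gene was 0.992. The p-values measure the spread between these animals. At an unadjusted p under 0.05 by limma, 4 subunit genes were higher (Cox6b2, Uqcrc1, Sdhb and Atp5c1) and 0 lower, where all genes gave 1.21% higher and 2.48% lower. The 3 DeltaKlf6 arrays lay above all 3 wildtype arrays for 10 of the 80 subunit genes, beside 3.41% of all genes, and below them for 1 (Sdhd), beside 5.91% of all genes. The 10 were Atp5c1, Atp5md, Atp5mpl, Cox6b2, Cox6c, Cox7c, Ndufa3, Ndufa4l2, Sdhb and Uqcrc1. No complex other than II had a member on the lower side of this count. Of the 10 genes on the higher side, 7 stayed there when the arrays were quantile-normalized again and 8 when they were centred on their medians. In these settings 9 and 11 of the 80 genes were on the higher side, beside 4.47% and 3.21% of all genes.

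The count depended on the library labelled DeltaKlf6 3. With it left out, 35 of the 80 subunit genes (43.8%) were above all wildtype arrays, beside 12.6% of all genes, and 16 were below them, beside 12.8% of all genes. With wildtype 2 left out instead, 22 (27.5%) were above, beside 7.49% of all genes. The 35 included 12 of the 17 complex V genes, 14 of 35 in complex I, 3 of 7 in complex III, 5 of 17 in complex IV and 1 of 4 in complex II. For 11 of the 35, DeltaKlf6 3 was below all wildtype arrays, among them Atp5a1, Atp5b, Ndufa9, Ndufc2 and Uqcrq. Over all genes this held for 917 of the 2147 above wildtype in DeltaKlf6 1 and 2, a larger share, so it is no trait of the subunits. Subunit values also spread more in DeltaKlf6: the median SD was 0.14 in wildtype and 0.25 in DeltaKlf6 (n = 3 each), and the DeltaKlf6 SD was the larger for 64 of the 80 (80%), against 68.1% of all genes. The libraries labelled DeltaKlf6 1 and 2 are also those with the low Gapdh and actin 3' minus 5' values, and DeltaKlf6 3 is the one with the high Gapdh value. The part of these values in the subunit differences was not tested.

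**Figure D1:**
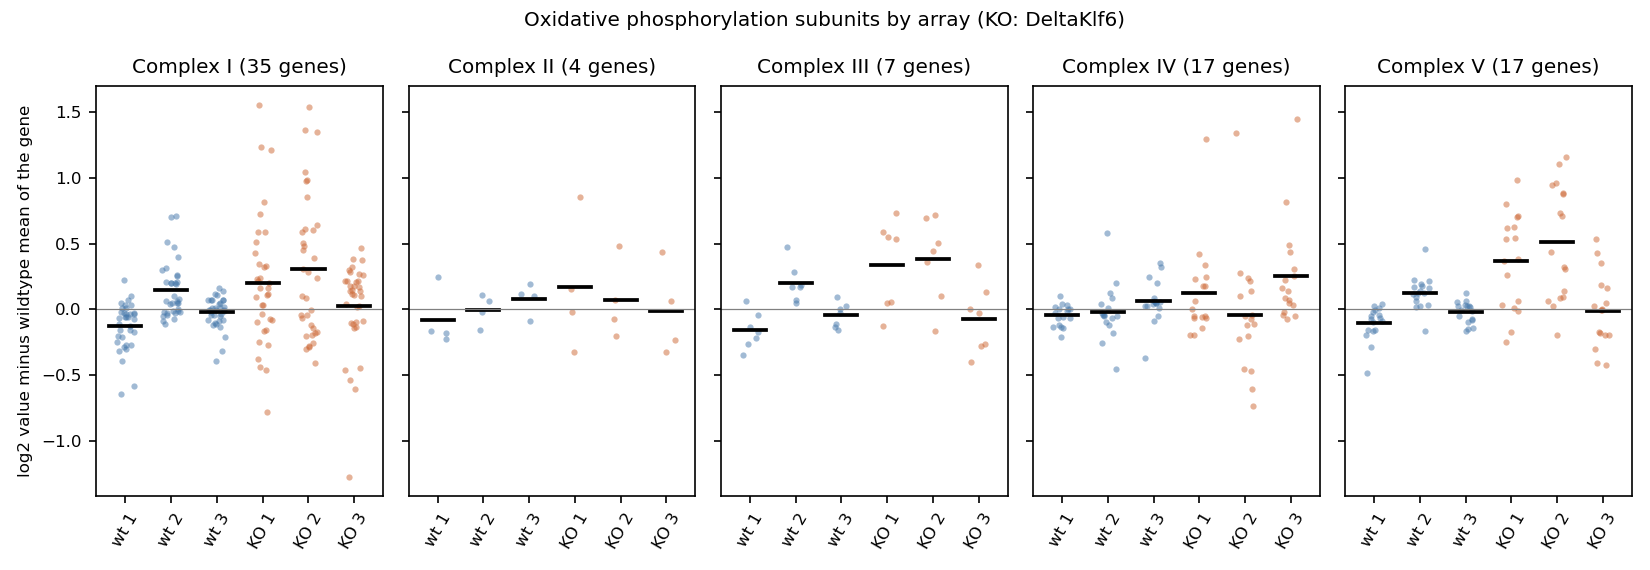
Log2 value minus the gene's wildtype mean (vertical axis) in each of the 6 arrays (horizontal axis; wt, wildtype; KO, DeltaKlf6), by complex; points are genes and black bars the mean over genes. The bars of DeltaKlf6 1 and 2 stand highest in complexes III and V (0.34 and 0.38, 0.37 and 0.51), while those of DeltaKlf6 3 are close to 0 there (-0.07 and -0.01).

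On the brightest probe sets, complex V had the highest mean difference of the 5 complexes and complex II the lowest. This order turned with the probe sets, genes and libraries used. With shared probe set types left out, complex II was highest (0.43, against 0.31 in complex V) and complex III lowest (0.08). That setting kept only 62 subunit genes, without Sdhc, Sdhd, Uqcrc1 and Uqcrc2, so membership changed too. Complex II then rested on Sdha (0.27) and Sdhb (0.59) alone. In complex III, Uqcrq was read from a probe set with a mean level of 4.02, and Uqcr10 from another at 9.37 with a difference of -0.39. Complex IV was lowest without the tissue isoforms (0.03) or without DeltaKlf6 3 (0.04), and highest without DeltaKlf6 2 (0.191, against 0.179 in complex V). The 17 ATP synthase genes had a mean difference of 0.29 and a median of 0.35, with 15 higher and 2 lower. Their mean deviation was 0.37, 0.51 and -0.01 in DeltaKlf6 1, 2 and 3, and -0.11, 0.13 and -0.02 in the wildtype arrays. The 7 complex III genes followed with 0.22, 6 of them higher, and deviations of 0.34, 0.38 and -0.07, where wildtype spanned -0.16 to 0.20. The 35 complex I genes averaged 0.18, with 25 higher, and deviations of 0.20, 0.31 and 0.03. Complex IV (mean 0.11, median 0.03, 12 of 17 higher) had its highest deviation in another library, with 0.13, -0.04 and 0.26 in DeltaKlf6 1, 2 and 3. Complex II averaged 0.08 through 1 gene, with a median of -0.02 and 3 of 4 genes lower, and its mean was 0.03 without DeltaKlf6 1 and 0.12 without DeltaKlf6 3. Without the library labelled DeltaKlf6 3 the means of complexes III and V were 0.360 and 0.438, and without DeltaKlf6 2 they were 0.135 and 0.179. The differences between complexes were not tested.

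**Figure D2:**
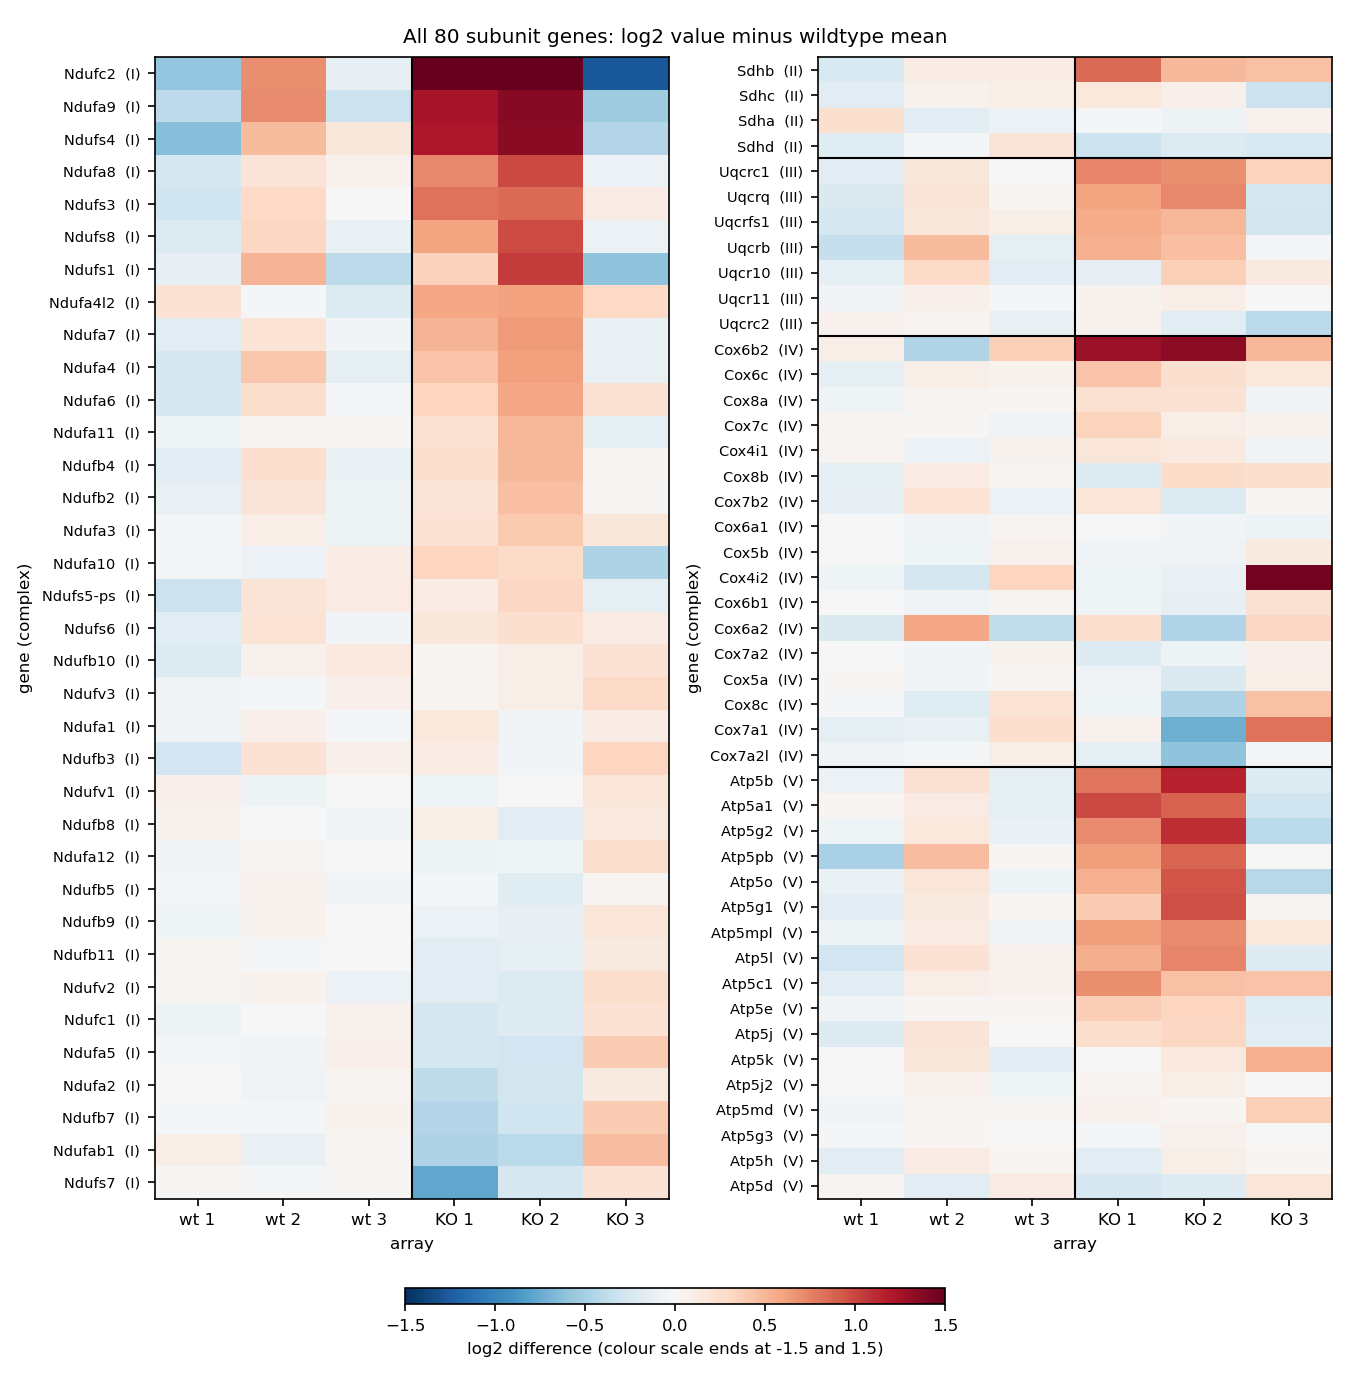
All 80 subunit genes (vertical axis, complex in brackets) in the 6 arrays (horizontal axis), coloured by log2 value minus the gene's wildtype mean; red is higher and blue lower, and the deepest colours also stand for values past the ends of the scale. Genes are ordered within a complex by their mean deviation in DeltaKlf6 1 and 2, so the order from top to bottom is a sorting and not a result; most genes that are deep red in these arrays are pale or blue in DeltaKlf6 3.

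In complex V, the alpha, beta and gamma genes of the catalytic part had higher values in the libraries labelled DeltaKlf6 1 and 2. The delta gene had lower ones on its brightest probe set only. Atp5c1, the gamma subunit of the rotating central stalk, read 10.66, 10.92 and 10.88 in wildtype and 11.52, 11.26 and 11.25 in DeltaKlf6. All its DeltaKlf6 arrays were above all wildtype arrays (difference 0.52, SE 0.21). Atp5a1, the alpha subunit, read 9.42, 9.51 and 9.25 in wildtype and 10.38, 10.28 and 9.09 in DeltaKlf6, so DeltaKlf6 1 and 2 were high and DeltaKlf6 3 was the lowest of the 6 arrays (0.52, SE 0.35). The catalytic beta subunit Atp5b showed the same order of groups, with 9.55, 9.86 and 9.49 in wildtype and 10.43, 10.79 and 9.43 in DeltaKlf6 (0.59, SE 0.35). The delta subunit Atp5d, with deviations of -0.25, -0.19 and 0.18, was 1 of the 2 complex V genes with a negative difference (-0.09). On its second-brightest probe set (mean level 10.14) Atp5d deviated by 0.15, 0.37 and -0.16 (difference 0.12), so its direction turned with the probe set. The epsilon subunit Atp5e differed by 0.17. Named beyond the rule for named genes, Atp5d and Atp5e were chosen after their values were seen.

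The 3 genes of the c subunit, which forms the rotor ring and is the same mature protein from each gene, had 2 similar differences and 1 near 0, which were not tested against each other. Atp5g1 read 9.84, 10.14 and 10.02 in wildtype and 10.39, 10.96 and 10.05 in DeltaKlf6 (0.46, SE 0.27), with DeltaKlf6 3 inside the wildtype range. Atp5g2 read 9.28, 9.51 and 9.25 in wildtype and 10.06, 10.45 and 8.94 in DeltaKlf6 (0.47, SE 0.38), with DeltaKlf6 3 below all wildtype arrays. Atp5g3 read 12.40, 12.45 and 12.41 in wildtype and 12.40, 12.48 and 12.42 in DeltaKlf6 (0.02, SE 0.19), so its 6 arrays lay close together.

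Among the stalk and membrane subunits, Atp5pb, subunit b of the peripheral stalk, read 8.94, 9.89 and 9.45 in wildtype and 10.06, 10.30 and 9.42 in DeltaKlf6 (0.50, SE 0.33). DeltaKlf6 1 and 2 were above wildtype, and DeltaKlf6 3 lay just under wildtype 3. Atp5mpl, a small proteolipid of the membrane part, read 10.15, 10.34 and 10.17 in wildtype and 10.84, 10.93 and 10.38 in DeltaKlf6, without overlap of the groups (0.50, SE 0.23). Atp5md did not overlap either, at 11.15, 11.22 and 11.21 in wildtype and 11.26, 11.22 and 11.55 in DeltaKlf6, although DeltaKlf6 2 exceeded wildtype 2 only beyond the printed digits (0.15, SE 0.20). It was named after its values were seen. The remaining complex V genes (Atp5h, Atp5j, Atp5j2, Atp5k, Atp5l and Atp5o) had differences between -0.02 for Atp5h and 0.36 for Atp5l.

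**Figure D3:**
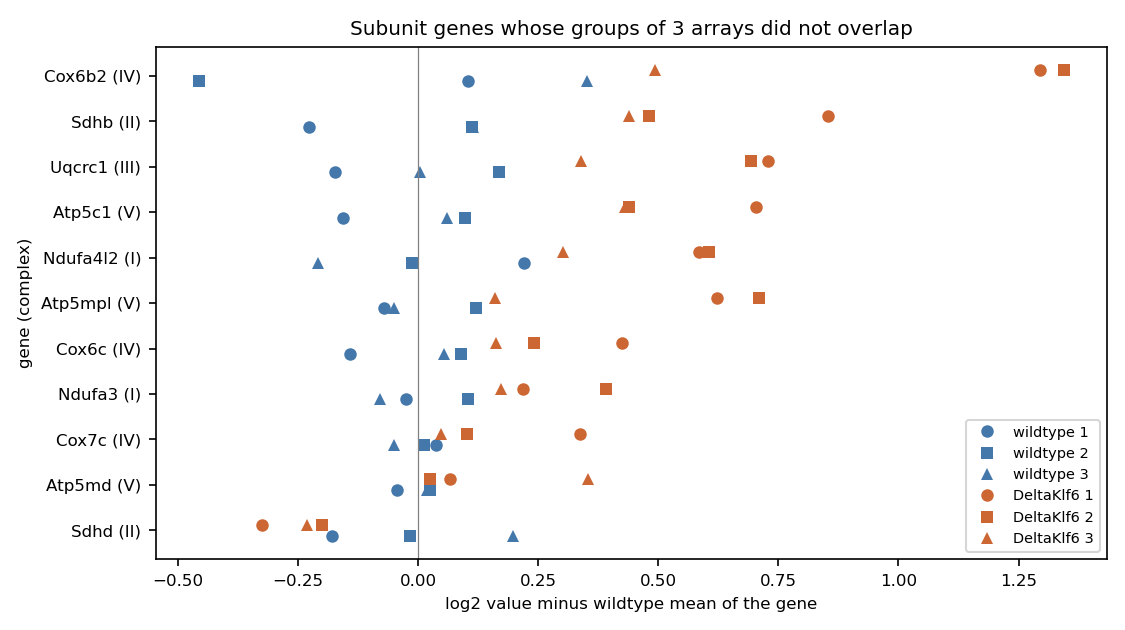
The 11 subunit genes whose groups of 3 arrays did not overlap (vertical axis, complex in brackets), with each array's log2 value minus the gene's wildtype mean (horizontal axis); blue marks wildtype and orange DeltaKlf6, and the marker shape gives the replicate number. Sdhd is the 1 gene with all DeltaKlf6 arrays to the left of wildtype; in Cox7c, Atp5md and Sdhd the nearest arrays of the groups nearly touch.

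Succinate dehydrogenase, the enzyme shared with the citric acid cycle, showed unlike values in its 4 genes. Sdhb, the iron-sulphur subunit, read 9.73, 10.07 and 10.07 in wildtype and 10.81, 10.44 and 10.39 in DeltaKlf6. Each DeltaKlf6 array was above each wildtype array, with DeltaKlf6 1 the highest (0.59, SE 0.22; 1.51-fold). Sdhd, a membrane anchor that binds ubiquinone, was the 1 subunit gene with non-overlapping lower values, at 7.19, 7.36 and 7.57 in wildtype and 7.05, 7.17 and 7.14 in DeltaKlf6 (-0.25, SE 0.20). The gap was narrow, since wildtype 1 and DeltaKlf6 2 differed in the second decimal, and it closed when the arrays were quantile-normalized again or centred on their medians. The other anchor Sdhc read 9.74, 9.96 and 10.0001 in wildtype and 10.06, 9.97 and 9.58 in DeltaKlf6 (-0.03, SE 0.22), with DeltaKlf6 3 below all wildtype arrays and DeltaKlf6 1 above them. The flavoprotein subunit Sdha read 11.18, 10.78 and 10.86 in wildtype and 10.92, 10.87 and 11.01 in DeltaKlf6 (-0.01, SE 0.21), with DeltaKlf6 inside the wildtype range.

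In complex III, Uqcrc1, a core subunit, had the groups apart, at 8.60, 8.94 and 8.78 in wildtype and 9.50, 9.47 and 9.11 in DeltaKlf6 (0.59, SE 0.22; 1.502-fold). The other core subunit Uqcrc2, named after its values were seen, did not share this, at 11.28, 11.27 and 11.11 in wildtype and 11.28, 11.06 and 10.82 in DeltaKlf6 (-0.17, SE 0.21). Uqcrfs1, the Rieske iron-sulphur protein, read 9.05, 9.49 and 9.41 in wildtype and 9.86, 9.82 and 9.04 in DeltaKlf6 (0.26, SE 0.28): DeltaKlf6 1 and 2 were above wildtype and DeltaKlf6 3 just below it. The ubiquinone-binding subunit Uqcrq repeated this order, at 10.67, 11.08 and 10.92 in wildtype and 11.48, 11.61 and 10.62 in DeltaKlf6 (0.35, SE 0.30). Uqcrb read 9.49, 10.30 and 9.70 in wildtype and 10.36, 10.28 and 9.80 in DeltaKlf6 (0.32, SE 0.28), where wildtype 2 was above DeltaKlf6 2. The small subunits Uqcr10 and Uqcr11 differed by 0.12 and 0.05. The direction of Uqcr10 turned with the probe set. On its other probe sets, at mean levels of 9.43 and 9.37, it differed by -0.29 and -0.39. There DeltaKlf6 1 was low, with deviations of -1.02 and -1.43.

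Complex I showed the largest departures of single arrays. Of the core subunits of the arm that carries electrons to ubiquinone, Ndufs3 read 8.83, 9.43 and 9.12 in wildtype and 9.94, 9.98 and 9.24 in DeltaKlf6 (0.59, SE 0.28; 1.51-fold), and Ndufs8, an iron-sulphur protein, read 9.44, 9.96 and 9.54 in wildtype and 10.24, 10.62 and 9.55 in DeltaKlf6 (0.49, SE 0.31). In both, DeltaKlf6 1 and 2 were above wildtype and DeltaKlf6 3 was inside the wildtype range. Ndufs1, the large iron-sulphur subunit of the NADH-oxidising part, read 7.48, 8.11 and 7.21 in wildtype and 7.94, 8.64 and 6.997 in DeltaKlf6 (0.26, SE 0.43), with DeltaKlf6 2 the highest and DeltaKlf6 3 the lowest array. Ndufv1, which binds NADH and the flavin, read 10.66, 10.51 and 10.58 in wildtype and 10.51, 10.58 and 10.76 in DeltaKlf6 (0.04, SE 0.20), with the groups mixed.

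Accessory subunits of complex I ranged most widely. Ndufs4, known for its loss in Leigh syndrome, read 6.63, 7.75 and 7.44 in wildtype and 8.48, 8.62 and 6.83 in DeltaKlf6 (0.71, SE 0.51): DeltaKlf6 1 and 2 stood well above wildtype 2, and DeltaKlf6 3 was near wildtype 1. Ndufa8 of the membrane arm read 9.10, 9.57 and 9.44 in wildtype and 10.09, 10.36 and 9.28 in DeltaKlf6 (0.54, SE 0.31) and Ndufa6 read 10.14, 10.64 and 10.37 in wildtype and 10.71, 10.97 and 10.60 in DeltaKlf6 (0.38, SE 0.23). In Ndufa8 and Ndufa6, DeltaKlf6 3 was inside the wildtype range, so the groups overlapped.

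The spread between arrays was similarly wide in 2 further accessory genes, chosen after their values were seen. Ndufc2 read 6.88, 8.16 and 7.34 in wildtype and 9.02, 8.999 and 6.19 in DeltaKlf6 (0.61, SE 0.74), and Ndufa9 read 8.08, 9.18 and 8.15 in wildtype and 9.70, 9.84 and 7.93 in DeltaKlf6 (0.69, SE 0.54). For each of them DeltaKlf6 1 and 2 were the highest arrays and DeltaKlf6 3 the lowest. On the other side, the iron-sulphur subunit Ndufs7, also chosen afterwards, had the most negative difference of the 80 genes, at 11.03, 10.99 and 11.03 in wildtype and 10.24, 10.76 and 11.24 in DeltaKlf6 (-0.27, SE 0.28): DeltaKlf6 1 and 2 were below wildtype and DeltaKlf6 3 above it. Ndufab1, the mitochondrial acyl carrier protein, had the same order, with deviations of -0.46, -0.41 and 0.47. Neither gene kept this order on its second-brightest probe set. There the deviations were -0.22, 0.66 and -0.55 for Ndufs7 (difference -0.04) and 0.36, 0.67 and -0.05 for Ndufab1 (0.33). A further Ndufab1 probe set, at a mean level of 8.23, deviated by -0.05, -0.26 and 0.69, with DeltaKlf6 3 again the highest.

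In complex IV, subunits that liver is known to use had small differences. Cox4i1 read 11.61, 11.48 and 11.62 in wildtype and 11.75, 11.72 and 11.53 in DeltaKlf6 (0.10, SE 0.20), and Cox6c read 11.28, 11.51 and 11.48 in wildtype and 11.85, 11.67 and 11.59 in DeltaKlf6 (0.28, SE 0.20), without overlap of the groups. Cox7c did not overlap either, at 10.31, 10.28 and 10.22 in wildtype and 10.61, 10.37 and 10.32 in DeltaKlf6 (0.16, SE 0.20), but DeltaKlf6 3 and wildtype 1 nearly met. The other liver forms Cox6a1, Cox6b1, Cox7a2 and Cox8a differed by -0.04, 0.01, -0.06 and 0.13. Cox7a2l, the supercomplex factor, was the lowest of complex IV, at 10.002, 10.03 and 10.14 in wildtype and 9.92, 9.45 and 10.04 in DeltaKlf6 (-0.25, SE 0.23), because DeltaKlf6 2 was low.

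Tissue isoforms accounted for most of the complex IV mean, which was 0.03 without them. Cox6b2, known as the testis form of Cox6b1, had the largest difference of the 80 genes, at 4.34, 3.78 and 4.59 in wildtype and 5.53, 5.58 and 4.73 in DeltaKlf6 (1.04, SE 0.32; 2.06-fold). Its DeltaKlf6 arrays were all above wildtype, DeltaKlf6 3 narrowly so. Cox4i2, known as the lung form, read 3.74, 3.55 and 4.13 in wildtype and 3.74, 3.70 and 5.25 in DeltaKlf6 (0.43, SE 0.43), so DeltaKlf6 3 alone was high, and the sign turned without it (-0.09). Cox7a1, a heart and muscle form, read 3.78, 3.798 and 4.16 in wildtype and 3.98, 3.18 and 4.73 in DeltaKlf6 (0.05, SE 0.38), high in DeltaKlf6 3 and low in DeltaKlf6 2.

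Isoforms at these low levels carry a further limit, since the array medians were 3.30 to 3.45 and detection was not assessed. Ndufa4l2, a paralog of Ndufa4 known to be induced by hypoxia, read 3.25, 3.02 and 2.83 in wildtype and 3.62, 3.64 and 3.34 in DeltaKlf6 (0.50, SE 0.22); its groups did not overlap, but its wildtype arrays lay under the array medians. Ndufa4 itself read 10.78, 11.44 and 10.91 in wildtype and 11.47, 11.66 and 10.93 in DeltaKlf6 (0.31, SE 0.28), with the groups overlapping. The muscle forms Cox6a2 and Cox8b differed by 0.03 and 0.12, and the testis form Cox8c by -0.03. Of 7 measured striated muscle markers 6 were under the array median, and their mean level was 2.67 to 2.93 in wildtype and 2.73 to 3.17 in DeltaKlf6. Of 5 measured adipocyte markers 4 were under it, with means of 3.74 to 4.32 and 3.87 to 4.04.

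The size of the difference went with the level of the probe set, in ranges that were chosen after the values were seen. The 42 subunit genes with a mean level from 6 to 11 deviated by 0.38, 0.50 and -0.08 in DeltaKlf6 1, 2 and 3, and 36 of them were higher. All genes in that range deviated by -0.02, 0.09 and -0.30, and 41.6% were higher. The 30 subunit genes above 11 deviated by only 0.01, 0.02 and 0.13, with 16 higher (53.3%). All genes above 11 had 0.06, 0.07 and -0.06, and 53.3% were higher too. Above wildtype in both DeltaKlf6 1 and 2 were 23.3% of these subunit genes and 30.4% of all genes above 11. From 6 to 11 these shares were 61.9% and 17.9%. All 3 DeltaKlf6 arrays were above wildtype for 4 of the 30, beside 3.76% of all genes above 11. The 8 subunit genes below 6 deviated by 0.26, 0.03 and 0.51. DeltaKlf6 3 was thus the lowest of the DeltaKlf6 arrays in the middle range and the highest in the others. In the middle range, all genes were low there too.

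**Figure D4:**
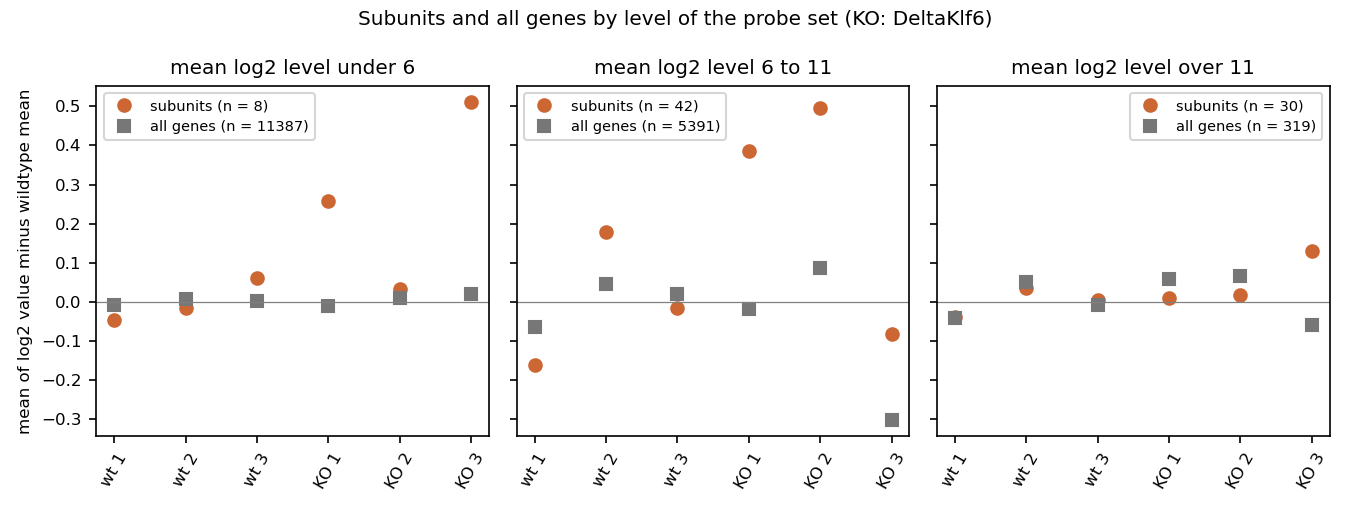
Mean log2 deviation from wildtype (vertical axis) in each of the 6 arrays (horizontal axis; wt, wildtype; KO, DeltaKlf6) for subunit genes (orange circles) and all genes (grey squares), in 3 ranges of mean probe set level. In the middle range the subunit genes reach 0.38 and 0.50 in DeltaKlf6 1 and 2, and all genes -0.02 and 0.09.

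It also went with the type of probe set. A suffix _a, _s or _x marks probe sets whose probes match more than 1 transcript, and 45 of the 80 subunit genes were read from such a probe set. The other 35 had a mean difference of 0.33, with 34 higher (all but Cox8c) and deviations of 0.48, 0.48 and 0.04. The 45 with a shared suffix averaged 0.07, with 25 higher and deviations of 0.04, 0.11 and 0.07. Over all genes the same 2 classes averaged -0.02 each. This split overlaps with the split by level. Most subunit genes above 11 were read from probe sets with a shared suffix, and all 8 below 6 from probe sets without it. Level and type were not separated.

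Probe sets of the same gene disagreed, which bears on how each gene above is read. For 32 subunit genes the second-brightest probe set had a mean level above 6. Over these 32, the median difference was 0.00 on the brightest and 0.26 on the second-brightest probe set, 16 against 26 were above 0, and 14 had opposite signs. In DeltaKlf6 1 and 2 the medians were -0.05 and -0.06 on the brightest and 0.33 and 0.55 on the second, and in DeltaKlf6 3 they were 0.11 and -0.03. With the second-brightest probe set in place of the brightest for these 32 and the other genes unchanged, the mean over the 80 genes was 0.27, and 69 were higher. The same was not computed over all genes.

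Cox6a1 shows the contrast: its brightest probe set read 12.94, 12.88 and 12.97 in wildtype and 12.93, 12.89 and 12.86 in DeltaKlf6, and its second 10.09, 10.31 and 10.16 in wildtype and 10.88, 11.11 and 10.02 in DeltaKlf6. Ndufv1, flat above, read 8.10, 8.34 and 8.14 in wildtype and 9.02, 8.94 and 7.82 in DeltaKlf6 on its second probe set, so DeltaKlf6 1 and 2 were high and DeltaKlf6 3 low there. Sdha read 9.87, 9.83 and 9.90 in wildtype and 10.45, 10.15 and 9.81 in DeltaKlf6 on its second (difference 0.27). Uqcrc2, Ndufb5, Cox5b and Atp5h, chosen after their values were seen, differed by 0.32, 0.54, 0.37 and 0.60 on the second probe set, and by -0.17, -0.05, 0.01 and -0.02 on the brightest. Cox6c went the other way, with 0.28 on the brightest and -0.03 on the second. The position of these probe sets along their transcripts is not given in the sources used here, and its part, like that of the 3' minus 5' values, was not tested.

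**Figure D5:**
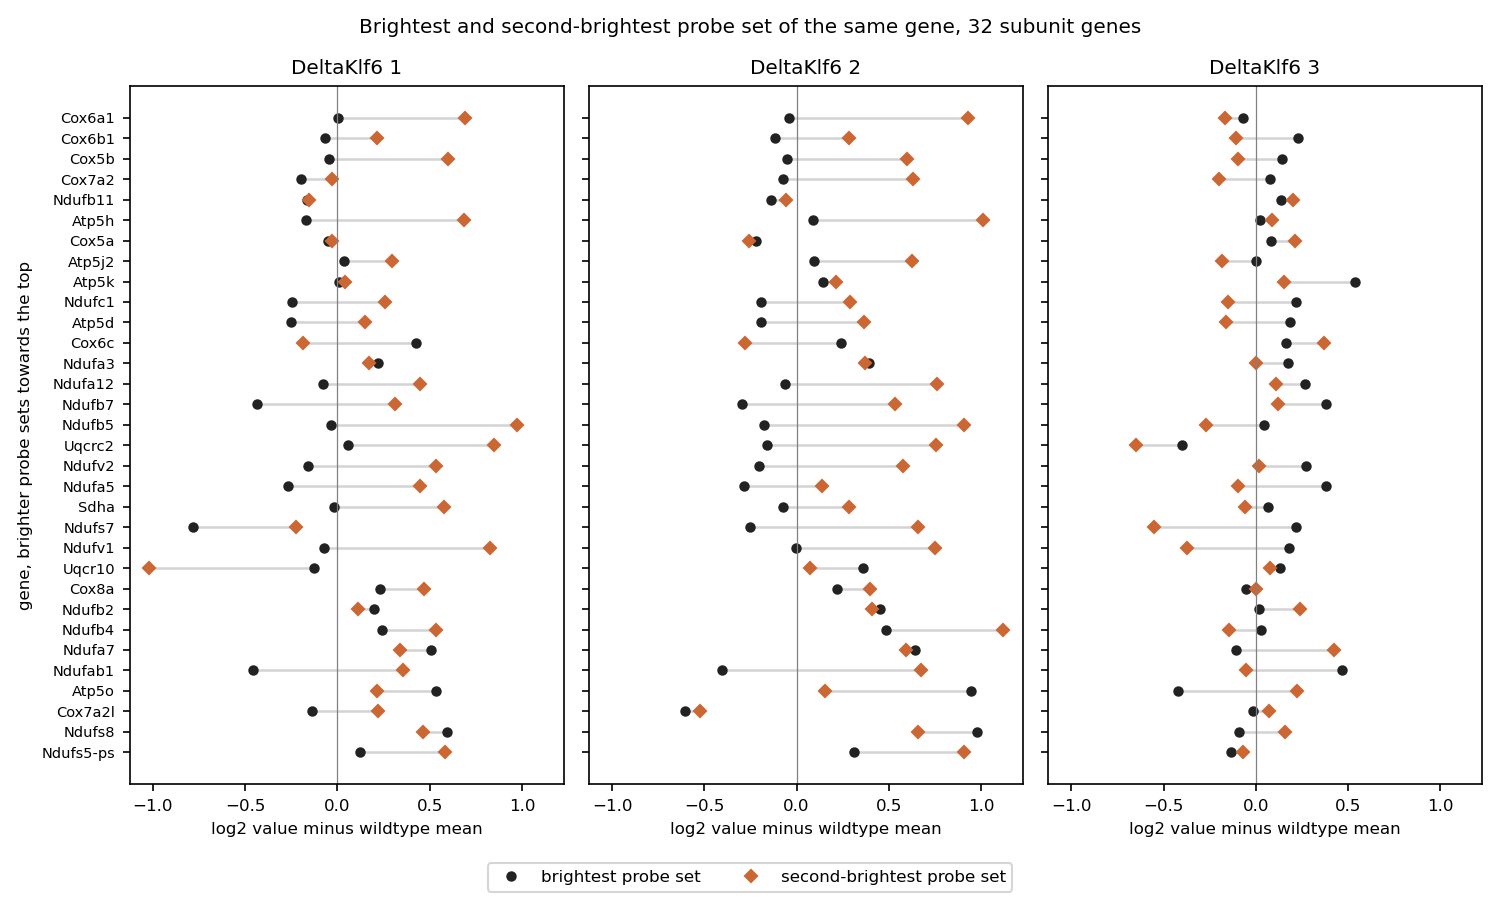
Log2 deviation from the wildtype mean (horizontal axis) in each DeltaKlf6 array for 32 subunit genes with a second probe set above level 6 (vertical axis, brighter towards the top); black circles are the brightest and orange diamonds the second-brightest probe set, joined by a grey line. In DeltaKlf6 1 and 2 most diamonds lie to the right of the circles (25 and 24 of 32), and in DeltaKlf6 3 fewer do (11 of 32).

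Promoters are shown because the subunit genes are known to share transcription factors and many of them were high together in the libraries labelled DeltaKlf6 1 and 2. RefSeq promoters (GRCm38.p6, 250 bases before to 50 after the start) matched 64 of the 80 genes. The words searched on both strands were GCGCATGC for NRF1, CCGGAAG for ETS factors such as GABP, and AAGATGGCG for YY1. The NRF1 word on one strand overlaps itself on the other in GCGCATGCGC, and such a pair was counted once per gene. Below are windows of 60 bases that hold a match and end before the start, 5′ to 3′ on the gene's strand, with the matched word in capitals. The first 4 windows hold the NRF1 word and the last 3 the ETS word.

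Sdhb (chr4:140961191-140961250, plus strand): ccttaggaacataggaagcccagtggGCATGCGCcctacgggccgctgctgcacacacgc
Ndufa6 (chr15:82354341-82354400, minus strand): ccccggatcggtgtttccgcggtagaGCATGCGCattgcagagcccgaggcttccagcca
Ndufa8 (chr2:36049339-36049398, minus strand): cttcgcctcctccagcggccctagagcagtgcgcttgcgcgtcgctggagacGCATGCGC
Atp5g2 (chr15:102671055-102671114, minus strand): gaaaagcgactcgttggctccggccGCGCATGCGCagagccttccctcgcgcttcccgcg
Ndufs3 (chr2:90904722-90904781, minus strand): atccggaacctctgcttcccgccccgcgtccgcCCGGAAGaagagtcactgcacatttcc
Sdhd (chr9:50603863-50603922, minus strand): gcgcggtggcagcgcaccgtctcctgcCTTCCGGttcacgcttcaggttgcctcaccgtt
Cox6b1 (chr7:30626115-30626174, minus strand): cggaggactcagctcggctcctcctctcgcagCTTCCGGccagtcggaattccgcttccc

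The NRF1 word stood in 10 of the 64 subunit promoters (15.6%), against 4.65% of 13514 promoters of measured genes and 3.05% of all 27025. The ETS word stood in 15 (23.4%), against 15.1% and 9.93%. The YY1 word stood in 7 (10.9%), against 2.58% and 1.64%, and in 6 of these 7 it lay after the start. Any of the 3 words stood in 26 (40.6%), against 20.5% of measured genes. Of the 29 subunit genes with a promoter that were above wildtype in both DeltaKlf6 1 and 2, 7 held the NRF1 word, 8 the ETS word, 3 the YY1 word and 15 any of them. Of the other 35 the counts were 3, 7, 4 and 11. These groups were made from the measured values, so the counts are a description with no test. A match is a description of these letters and not of binding.

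Genes that assemble or supply the complexes were described in 9 lists, and no gene of them passed the test. Complex V assembly factors and electron carriers had more genes higher than lower. The other 7 lists had more lower, as had all genes measured, of which 48.4% were higher. No test compared the lists with the subunits. Of 16 measured complex I assembly factors 7 were higher and 9 lower (median -0.04), with mean deviations of -0.01, 0.26 and -0.49 in DeltaKlf6 1, 2 and 3, against 0.20, 0.31 and 0.03 in the subunits. Of 20 complex IV assembly factors 7 were higher and 13 lower (median -0.09). Cox10, an enzyme on the path to haem A, differed by -0.28 and Coa5 by -0.25, both without overlap of the groups. The 4 complex V factors were all higher by small amounts (median 0.12; Fmc1 0.16 and Tmem70 0.14). Of 4 complex II factors 1 was higher and 3 lower (median -0.06).

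Among 5 complex III factors 1 was higher and 4 lower (median -0.26). Ttc19, which clears fragments of the Rieske protein, read 6.31, 6.62 and 6.95 in wildtype and 5.88, 5.89 and 5.90 in DeltaKlf6 (-0.74, SE 0.23): the 3 DeltaKlf6 arrays agreed closely and lay below all wildtype arrays. Uqcc2, which supports cytochrome b synthesis, read 9.13, 9.45 and 9.24 in wildtype and 9.64, 9.79 and 9.63 in DeltaKlf6 (0.42, SE 0.20), all above wildtype. In both genes DeltaKlf6 3 stood with DeltaKlf6 1 and 2, unlike in most subunit genes.

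Electron carriers and other feeders of the chain were near balance, with 9 of 14 higher and a median of 0.02. Coq6, an enzyme of ubiquinone synthesis, differed by 0.49, and Gpd2, the mitochondrial glycerol phosphate dehydrogenase, read 6.70, 7.33 and 7.26 in wildtype and 6.83, 6.84 and 4.75 in DeltaKlf6, low in DeltaKlf6 3. In the citric acid cycle 4 of 11 genes were higher (median -0.10), and Idh3g and Fh1 differed by -0.21 and 0.20. Of 24 genes of import and inner membrane organisation 10 were higher (median -0.02). The ADP/ATP carrier Slc25a5, which exports the ATP that complex V makes, read 10.73, 11.16 and 10.87 in wildtype and 11.39, 11.55 and 10.93 in DeltaKlf6, with DeltaKlf6 1 and 2 high as in the subunits. The import receptor Tomm70a read 7.26, 7.68 and 7.23 in wildtype and 7.18, 7.37 and 5.62 in DeltaKlf6, low in DeltaKlf6 3.

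Among 19 regulators of mitochondrial biogenesis 7 were higher (36.8%), with a median of -0.19, beside 48.4% and -0.01 over all genes. Of all genes at mean levels from 6 to 11, 41.6% were higher, with a median of -0.07. No test compared the regulators with either. Yy1, one of the factors whose word was searched, read 8.57, 8.40 and 7.89 in wildtype and 7.42, 7.92 and 7.58 in DeltaKlf6 (-0.65, SE 0.26), and the GABP subunit gene Gabpb1 read 3.34, 3.53 and 3.91 in wildtype and 4.34, 4.47 and 3.90 in DeltaKlf6 (0.65, SE 0.25). Each overlapped wildtype in 1 array, and the wildtype values of Gabpb1 were close to the array medians, where detection was not assessed. Sirt3, the mitochondrial deacetylase, was below wildtype in all DeltaKlf6 arrays, at 9.09, 9.13 and 9.05 in wildtype and 8.14, 8.78 and 8.82 in DeltaKlf6 (-0.51, SE 0.25). It was the 1 regulator of 19 with non-overlapping lower values (5.26%), beside 5.91% of all genes. Sirt3 and Nrf1 were named after their values were seen. Nrf1 differed by -0.34 with an SE of 0.37. Like the subunits, these differences did not pass limma's adjusted threshold.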

How the data were processed

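Total RNA of 6 livers was measured on 1-colour Affymetrix arrays, 1 animal each. The deposited values are log2 expression values per probe set that the authors made with RMA. The submitters' processing notes name version 1.2.1 of the Affymetrix Expression Console. That the log is to base 2 is inferred: the highest value was 13.9, and a 16-bit scanner cannot exceed 16 on the log2 scale.

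Of 45141 probe sets, the platform annotation gives 28898 a single gene, 551 several and 15692 none here; only the first were used. Each of 17097 genes was represented by its brightest probe set. The fit across genes used lmFit and eBayes of limma 3.58.1 (R 4.3.3) with genotype as factor, two-sided, with Benjamini-Hochberg adjustment over all genes and a threshold of 0.05. Means over subunits are of log2 value minus the gene's wildtype mean and carry no test. Precision is limited by 3 arrays per group. The calculation was tested on simulated data.

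Members, gene lists and tests were chosen with earlier results of these data known. The rule for named genes took, per complex, the members with the smallest unadjusted p by limma, the tissue isoforms, the Sdh genes and the catalytic core genes (39 members), and 2 genes per list. Of 213 list entries 186 were measured. Alternatives were another choice, mean or type of probe set, another normalization, dim genes left out, tests of every probe set, other variance models, each array left out, a replicate block and other summaries over members. Protein sequences were not used here.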

Additional observations from a re-analysis of the deposited data

How the results depend on the processing

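With 3 arrays per group and 0 genes called, no subunit difference here is distinguishable from the spread between animals. By limma 0 genes passed the adjusted threshold under every alternative run, with 331 to 1546 genes at an unadjusted p under 0.05 (1546 without DeltaKlf6 replicate 3, 379 without wildtype replicate 3, 631 with all arrays). The mean over all subunits stayed between 0.13 and 0.28 under the alternatives. For complex I it was 0.34, for complex II 0.43 and for complex III 0.078 when probe sets of shared types were left out. That setting also dropped genes read only from such probe sets, among them Sdhc, Sdhd, Uqcrc1 and Uqcrc2. As a median over members, complex II was at -0.019. With 1 array left out, complex I ranged from 0.115 (without DeltaKlf6 replicate 2) to 0.255 (without DeltaKlf6 replicate 3), complex III from 0.135 to 0.360 and complex V from 0.179 to 0.438 in the same settings, complex II from 0.029 (without DeltaKlf6 replicate 1) to 0.119 (without DeltaKlf6 replicate 3), and complex IV from 0.041 (without DeltaKlf6 replicate 3) to 0.191 (without DeltaKlf6 replicate 2). The number of subunit genes with non-overlapping higher groups was 10 of 80 with all arrays, beside 3.41% of all genes. With 1 array left out it ranged from 11 to 35 (22 without wildtype replicate 2, 35 without DeltaKlf6 replicate 3). Leaving out an array cannot lower such a count, and the share of all genes rose too, to between 6.30% and 12.6%. The cause was not tested. On the lower side the count was 1, beside 5.91% of all genes. Without DeltaKlf6 replicate 3 it was 16, beside 12.8% of all genes.

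Of 39 named subunit genes, 25 kept their sign under all alternatives fitted gene by gene and 14 did not. That count leaves out the second-brightest probe set, on which Cox6c, among the 25, turned from 0.28 to -0.03. Of the 14, only Uqcrq, Cox4i2, Atp5g1 and Ndufs1 had differences above 0.1 with all arrays. When all probe sets of a gene were averaged, the values became -0.0026 for Uqcrq (its other probe sets had mean levels of 3.25 to 4.02, near the array medians), 0.22 for Cox6a1, 0.035 for Cox7a2 and 0.0067 for Sdha. Without shared probe set types they became -0.075 for Atp5g1 (on a probe set with a mean level of 2.26, under the array medians, whose sign cannot be read), 0.13 for Cox7a2 and 0.27 for Sdha. After another quantile normalization they became -0.015 for Cox6b1, 0.083 for Cox8c and -0.022 for Atp5g3. With array weights they became 0.027 for Sdhc, -0.045 for Cox6a2, -0.043 for Cox6b1 and -0.18 for Cox7a1. With 1 array left out the ranges were -0.125 to 0.12 for Sdhc, -0.086 to 0.69 for Cox4i2, -0.15 to 0.32 for Cox6a2, -0.094 to 0.079 for Cox6b1, -0.33 to 0.44 for Cox7a1, -0.13 to 0.00092 for Cox7a2, -0.26 to 0.19 for Cox8c, -0.088 to 0.11 for Sdha, -0.13 to 0.70 for Ndufs1, -0.035 to 0.091 for Ndufv1 and -0.0078 to 0.033 for Atp5g3. Adjusted p-values by limma for the named members ranged from 0.412 to 0.99996 over the alternatives.

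Deviations of same-numbered arrays correlated across genes at -0.005, 0.26 and 0.08. Arrays of different numbers were not compared, so these values cannot tell whether the replicate numbers pair the arrays. A fit with the number as a block gave 0 called genes and 703 at an unadjusted p under 0.05. The choice of the second-brightest probe set and the counts of non-overlapping groups under alternatives were added after seeing the data.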
